A study of Rattus norvegicus with 4 samples.

Results

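The genes described are 38 rat genes of glucose uptake, glycolysis, pyruvate and lactate handling, oxygen sensing and the response to low oxygen. The list was given by symbol and was chosen with earlier results of these data known. A member was taken as measured when a probe's RefSeq accession belonged to its symbol. This held for 37 of the 38 members, among 16581 named genes in all; for Egln1 no probe was matched, so its expression was not analysed here, and it enters only the counts of promoters and pseudogenes. Expression was measured in NR8383, a macrophage line established from lung lavage of a normal rat, after 20 passages. Each of 4 cultures, which the study's design gives as biological replicates, had been exposed for 4 h to 2 µg/mL of the iron oxide particle Fe2O3 NRCWE018, and its RNA was hybridised to 1 single-colour array. The study sets such cultures against unexposed controls, which were not analysed here, so no value below is an effect of the particle. All cultures are of 1 cell line and were kept in air with added CO2, and the labels name no step at low oxygen.

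Glycolysis breaks glucose down to pyruvate in the cytosol, and lactate dehydrogenase turns pyruvate into lactate, which leaves the cell through monocarboxylate transporters. Macrophages are known to raise glycolysis when they are activated. The transcription factor HIF-1 pairs HIF1A with ARNT and induces many glycolytic genes. In the presence of oxygen, prolyl hydroxylases of the EGLN family mark HIF1A for capture by VHL and breakdown. The hydroxylases use iron as a cofactor.

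On the arrays, 9 of 10 macrophage markers were above background on every array, Marco being the exception. None of the 7 lung epithelial markers was, nor any measured B cell, skeletal muscle or neuron marker. Those that were included 3 of 4 endothelial markers (Pecam1, Cdh5 and Vwf), 1 of 5 fibroblast markers (Dcn) and 1 of 4 T cell markers (Cd3d). Cdh5 and Cd3d were dim, at 2.61 to 2.80 and 2.99 to 3.61 times the local background. The part of these markers' sources in the members' signal was not tested. Of all named genes, 50.5% were above background on every array. The 75th percentile of the signal lay between 756.5 and 1082, and it was lowest on replicate 4. No spot was saturated. The 4 arrays shared 1 slide, so the culture and the place on the slide cannot be told apart, and the number of arrays limits the precision.

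HIF-1 binds the core ACGTG or GCGTG, so the members' promoters were searched for these letters on both strands, in the 250 bases before to the 50 bases after each RefSeq gene start (GRCr8 assembly). A window was found for 35 members, Egln1 among them, 40 windows in all. Of these, 25 (62.5%) held a match, against 41.6% of all 33469 promoter windows. The members' windows were also richer in G and C, with a median of 62.7% against 51.7%. Matches were present in 21 of 30 windows of members above background on every array (27 genes). For members above background on none, they were present in 2 of 8 windows (6 genes). The median share of G and C was 63.2% in the former windows and 55.8% in the latter. The same split was not made over all named genes. The part of base composition in these shares was not tested, and a match is not a bound site. The stretches below are the 150 bases just before the gene start. They show 4 members whose signal was above background, a glucose transporter, a lactate dehydrogenase, a glycolytic mutase and a mitophagy gene, and then 2 textbook hypoxia targets whose signal was not. Capitals mark the matches, in either orientation, and where 2 matches overlap they form CACGTG.
Slc2a1, chr5:138002372-138002521, plus strand: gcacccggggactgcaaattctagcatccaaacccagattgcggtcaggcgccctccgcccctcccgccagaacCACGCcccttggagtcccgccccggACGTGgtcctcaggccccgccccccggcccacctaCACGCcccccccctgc
Ldha, chr1:106507942-106508091, plus strand: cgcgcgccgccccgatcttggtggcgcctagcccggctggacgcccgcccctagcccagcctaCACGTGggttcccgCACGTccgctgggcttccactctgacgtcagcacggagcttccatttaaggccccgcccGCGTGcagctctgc
Pgam1, chr1:250673002-250673151, plus strand: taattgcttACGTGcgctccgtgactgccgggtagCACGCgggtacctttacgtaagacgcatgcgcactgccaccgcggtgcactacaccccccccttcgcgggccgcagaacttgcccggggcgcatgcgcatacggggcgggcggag
Bnip3, chr1:203154963-203155112, minus strand: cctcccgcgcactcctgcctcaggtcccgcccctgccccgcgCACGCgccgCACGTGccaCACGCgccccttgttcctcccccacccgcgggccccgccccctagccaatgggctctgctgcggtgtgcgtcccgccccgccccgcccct
Slc16a3, chr10:106712178-106712327, plus strand: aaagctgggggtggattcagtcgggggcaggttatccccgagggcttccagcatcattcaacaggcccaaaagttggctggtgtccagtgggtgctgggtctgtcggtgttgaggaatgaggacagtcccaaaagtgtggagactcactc
Vegfa, chr9:22452704-22452853, plus strand: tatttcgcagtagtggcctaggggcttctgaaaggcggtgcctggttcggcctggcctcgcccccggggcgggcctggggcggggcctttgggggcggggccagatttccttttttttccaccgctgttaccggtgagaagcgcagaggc
The stretch of Slc2a1 holds matches that begin 76, 51 and 16 bases before the gene start, and that of Ldha holds matches at 87, 73 and 14 bases. In Bnip3 the matches lie close together, at 108, 99 and 90 bases. Pgam1 has matches at 141 and 115 bases. The stretches of Slc16a3 and Vegfa have none, which says only that these letters are not in this window. Vegfa has a further listed start, whose window has none either. The stretches are examples, and other members went the other way. The searched windows of Hk2, Pkm, Tpi1, Vhl, Egln2, Pfkfb4 and Adm, all above background, held no match. Pfkm and Hk1 were above background on no array, yet the window of Pfkm and 1 window of Hk1 held a match.

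Most of the measured members were above background, which means that the scanner software marked the probe as well above background. Of 37 measured members, 29 (78.4%) reached this on each of the 4 arrays, 1 (Aldoc) on some, and 7 never did. The share over all 16581 named genes was 50.5%. Where Hk1, Pfkm or Slc2a3 was below background, another hexokinase, phosphofructokinase or glucose transporter was above it. Signal too dim to call leaves a gene's expression undecided. Each level below is the log2 processed signal minus the 75th percentile of that array, and a value with ± is a mean with its SD (n = 4). A level belongs to its probe, and levels of different genes or probes are not ranked.

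**Figure D1:**
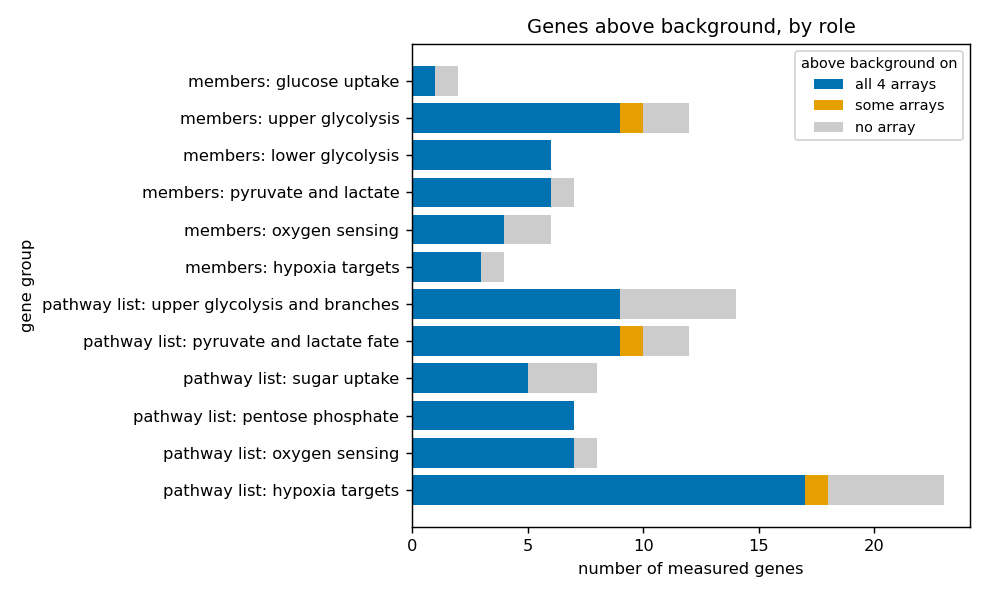
Number of measured genes (horizontal axis) in each role of the members and in each list of other pathway genes, split by the number of arrays with signal above background (4, some or 0). All 6 members of lower glycolysis and all 7 pentose phosphate genes were above background on every array, whereas 1 of the 2 glucose transporters among the members was.

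Glucose enters cells through facilitative transporters. Slc2a1, which encodes the widely expressed transporter GLUT1, was at 2.98, 2.39, 2.50 and 2.83 on replicates 1 to 4 (2.67 ± 0.27). Its highest array was 1.51-fold above its lowest, with replicates 1 and 4 high and replicates 2 and 3 low. Slc2a3, the gene of the high-affinity transporter GLUT3, was at -7.33, -6.86, -7.79 and -6.81, and was above background on no array. A further Slc2a3 probe with 10 spots per array was above background on none either. For comparison, the lowest probe well above background lay at -5.55, -5.64, -5.65 and -5.04 on replicates 1 to 4.

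Of the hexokinases, which trap glucose as glucose 6-phosphate, Hk2 and Hk3 were above background and Hk1 was not. Hk1 is the form found in most tissues and Hk2 the form known to be induced by HIF-1. Hk1 (NM_012734) was at -7.71, -7.78, -7.83 and -7.23, with a spot signal only 1.12 to 1.35 times the local background. It has 1 probe. Hk2 (NM_012735) was at -2.34, -2.54, -2.55 and -2.27 (-2.42 ± 0.14). Hk3, a form known from leukocytes, was at 1.87, 1.87, 1.56 and 1.89. Replicates 1, 2 and 4 were nearly equal for Hk3, and replicate 3 was lower.

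The isomerase Gpi was at 4.25 ± 0.19. Phosphofructokinase commits sugar to glycolysis, and its liver-type gene Pfkl (-1.71 ± 0.30) and platelet-type gene Pfkp (4.16 ± 0.09) were above background. Pfkl was at -1.34, -1.84, -2.05 and -1.64, a 1.63-fold range with replicate 1 high. The muscle-type gene Pfkm was above background on no array, at -7.52, -5.67, -7.59 and -7.07.

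Pfkfb3 and Pfkfb4 encode enzymes that set the level of fructose 2,6-bisphosphate, the activator of phosphofructokinase. Pfkfb3 was at 0.32, 0.44, 0.48 and 0.38, nearly the same on each array (SD 0.07). That probe matches the transcript XM_006254193, and the probe for NM_057135 was above background on 1 array. Pfkfb4 was at -0.83 ± 0.14, and both its probes were above background.

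Aldolase splits the 6-carbon sugar. Aldoa, the form of muscle and most other cells, was at 5.68, 5.51, 5.25 and 5.64, and replicate 3 was the lowest. Aldoc, known from brain and from hypoxia, sat at the edge of detection, at -5.17, -5.14, -5.03 and -5.71. It was above background on 3 arrays and not on replicate 4, and its signal was 1.78 to 2.33 times the local background. Just inside the edge was Arnt, with a signal 2.69 to 3.58 times the local background. Triosephosphate isomerase, Tpi1, was at 3.25 ± 0.18.

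**Figure D2:**
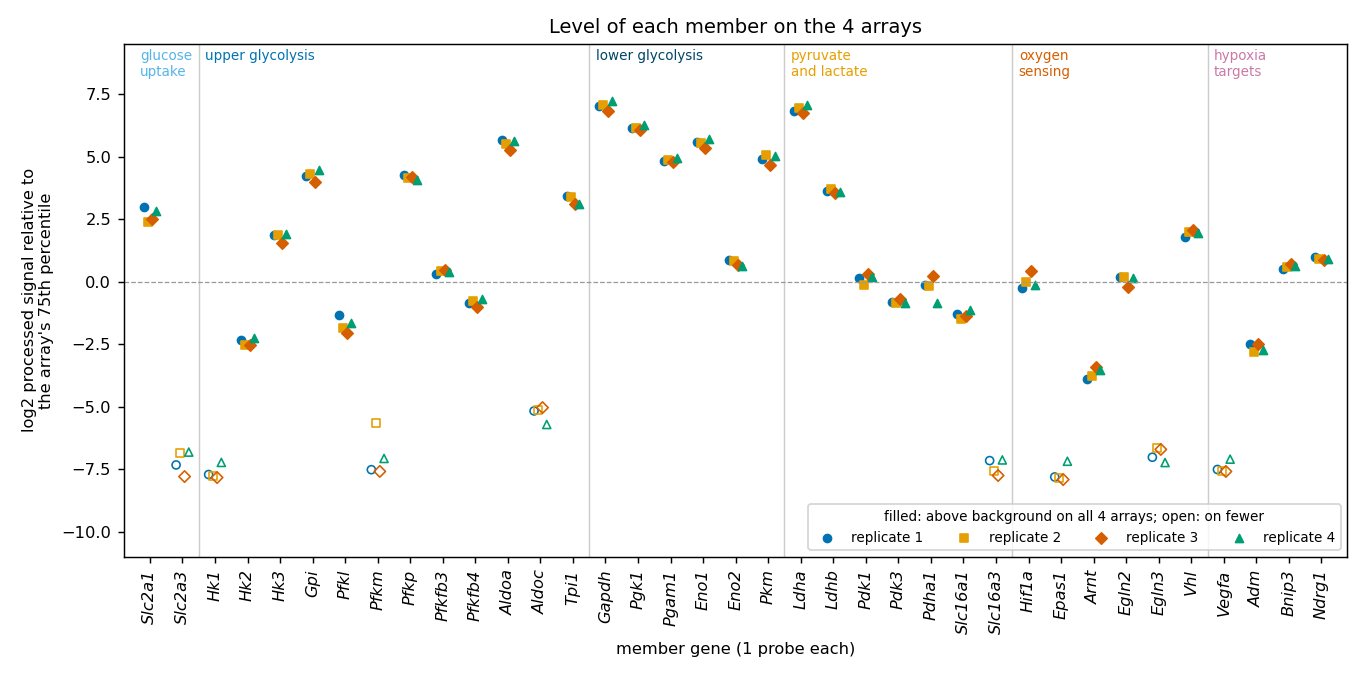
Level of each measured member on the 4 arrays, in log2 units above or below the 75th percentile of the array (vertical axis), ordered by role; each point is 1 array, filled where the member was above background on all 4 arrays. The open points of Slc2a3, Hk1, Pfkm, Slc16a3, Epas1, Egln3 and Vegfa lie near the bottom, and heights of different genes are not comparable because each comes from its own probe.

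All 6 members of lower glycolysis, the steps that yield ATP, were above background on every array. Gapdh, the dehydrogenase often used as a reference gene, was at 7.01, 7.07, 6.82 and 7.21. Its highest array was 1.31-fold above its lowest. The kinase Pgk1 was at 6.16 ± 0.09 and the mutase Pgam1 at 4.83, 4.85, 4.80 and 4.95 (SD 0.06). Of the enolases, the common form Eno1 was at 5.54 ± 0.16 and the neuronal form Eno2 at 0.74 ± 0.11. Pyruvate kinase, Pkm, was at 4.92 ± 0.19.

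Both lactate dehydrogenase genes were above background. Ldha, whose subunit favours making lactate, was at 6.82, 6.94, 6.75 and 7.05, and Ldhb was at 3.62, 3.70, 3.53 and 3.59. Of the lactate carriers, Slc16a1 (MCT1) was above background, at -1.30, -1.50, -1.36 and -1.14. Slc16a3 encodes MCT4, the carrier known for lactate export from glycolytic cells and as a HIF-1 target. It was at -7.15, -7.57, -7.75 and -7.13 and above background on no array, on a probe with 10 spots per array. In the list of other pathway genes, the carrier gene Slc16a7 was also below background. Bsg, the chaperone of MCT1 and MCT4, was above background.

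Pyruvate dehydrogenase feeds pyruvate into mitochondria and is switched off by its kinases. Pdk1, a kinase gene induced by HIF-1, was at 0.12 ± 0.19, and all 4 of its probes were above background. Pdk3 was at -0.83, -0.85, -0.70 and -0.85, with replicate 3 slightly higher. Pdha1, the catalytic subunit's alpha chain, was at -0.13, -0.18, 0.22 and -0.87, high on replicate 3 and low on replicate 4. Its other 2 probes did not share this pattern, with SDs of 0.08 and 0.05 against 0.46.

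Among the oxygen sensing genes, Hif1a, Arnt, Egln2 and Vhl were above background on every array, and Epas1 and Egln3 on none. Hif1a was at -0.25, -0.01, 0.42 and -0.12, highest on replicate 3 by its main probe. Its other probe, at -5.39, -6.11, -4.79 and -5.21, was above background on 2 arrays and also highest on replicate 3. Epas1, which encodes the related factor HIF-2 alpha, was at -7.81, -7.86, -7.91 and -7.18. Arnt, the partner of both factors, was at -3.87, -3.78, -3.40 and -3.52, and its other probe was above background on no array.

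Of the prolyl hydroxylases, Egln2 was at 0.19, 0.19, -0.22 and 0.16, and replicate 3 stood below the others. Egln3, known as a strongly hypoxia-induced hydroxylase, was at -7.02, -6.66, -6.71 and -7.23. Vhl, the recognition subunit of the ligase that removes HIF, was at 1.80, 1.99, 2.05 and 1.94.

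Of the hypoxia targets among the members, Adm, Bnip3 and Ndrg1 were above background and Vegfa was not. Vegfa, the gene of the main angiogenic growth factor, was at -7.51, -7.58, -7.59 and -7.10, and none of its 3 probes was above background on any array. The mitophagy receptor gene Bnip3 was at 0.51, 0.59, 0.70 and 0.63. Ndrg1, a stress-responsive gene, was at 0.99, 0.91, 0.87 and 0.90 and had the smallest SD of the 29 members (0.05). Adm, which encodes the vasoactive peptide adrenomedullin, was at -2.49, -2.80, -2.48 and -2.72.

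For 14 members with several probes, the probes were compared. In 11 of them the probes gave the same answer, all above background on every array or all on none, and in Pfkfb3, Hif1a and Arnt they did not. All 8 Gapdh probes were above background, with means from 4.27 to 7.03. The 4 Pkm probes ranged from -1.76 to 4.92. The RefSeq table names pseudogenes for 11 members, Egln1 included, 209 in all, of which 81 belong to Gapdh, 31 to Eno1, 30 to Ldha and 19 to Pkm. Whether their transcripts add to a probe's signal was not tested, and levels of these genes are uncertain to that extent.

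**Figure D3:**
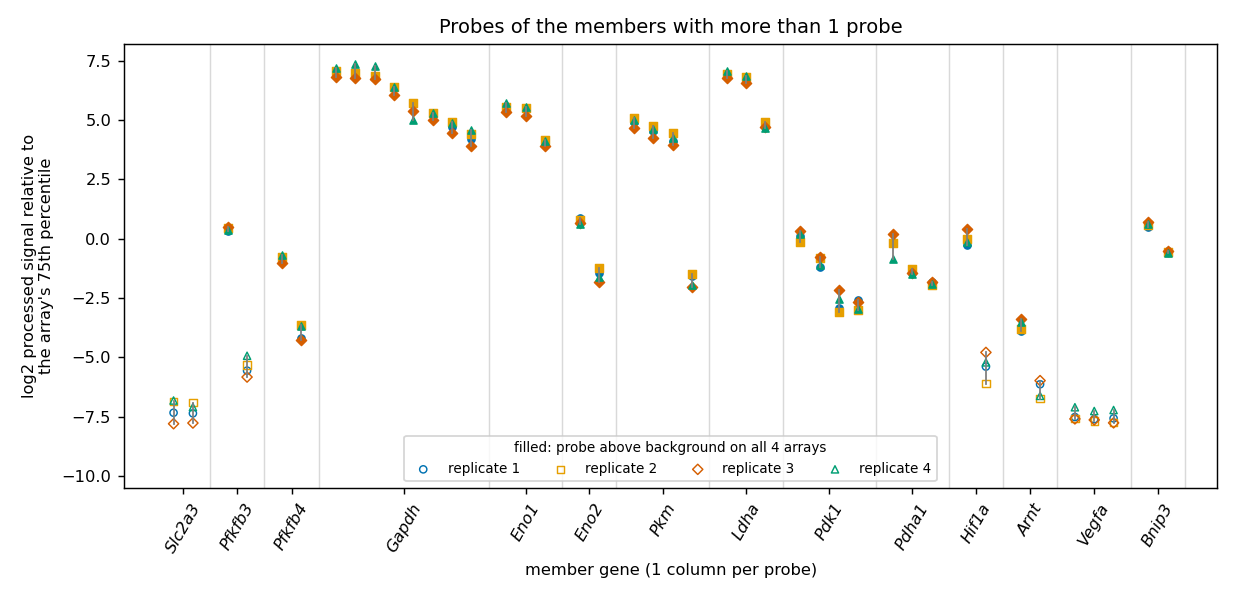
Level of each probe of the 14 members with more than 1 probe, in log2 units above or below the 75th percentile of the array (vertical axis); each column is a probe, each point 1 array, filled where the probe was above background on all 4 arrays. The 3 Vegfa probes lie together near the bottom, whereas the 2 probes of Pfkfb3 and of Hif1a lie far apart.

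The members' spread between the 4 cultures was close to that of all genes tested. Each gene's variance between arrays was set against that of genes of like level with limma, over 8376 genes with signal above background throughout. None of the 29 members passed at an adjusted p of 0.05, and 1, Pdha1, had an unadjusted p under that value. The shares among all genes were 0.191% for the adjusted and 5.75% for the unadjusted p. Pdha1 had an SD of 0.46, a 2.13-fold range and a limma adjusted p of 0.557. By p, Slc2a1 (SD 0.27) came next with an adjusted p of 0.94, followed by Hif1a (SD 0.29) with an adjusted p of 0.979. A p that misses the threshold does not show equal levels.

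The members' SDs ran from 0.05 to 0.46, with a median of 0.16 against 0.18 over all genes tested. For 25 of the 29 (86.2%), the highest array was less than 1.5-fold above the lowest, against 76.5% of all genes tested, which is given as a description with no test. The other 4 members were Slc2a1, Pfkl, Pdha1 and Hif1a. The smallest SDs belonged to Ndrg1, Pgam1, Ldhb and Pfkfb3, and the largest to Pdha1, Pfkl, Hif1a and Slc2a1. Members' SDs lay below the prior for their level in 58.6% of cases, against 56.4% of all genes. Leaving out replicate 3 lowered the members' median SD from 0.16 to 0.10, while that of all genes was then 0.16.

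Repeat spots show how far spot noise reaches. For 11 probes of members with 10 spots per array and signal above background, the SD among repeat spots of an array had medians from 0.04 to 0.09. The SD between arrays was larger in 9 of the 11, for Pkm 0.19 against 0.04 and for Eno1 0.16 against 0.06. For Pgam1 (0.06 against 0.07) and Ldhb (0.07 against 0.08) it was not. The SD between arrays is of spot means, which vary less than single spots.

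**Figure D4:**
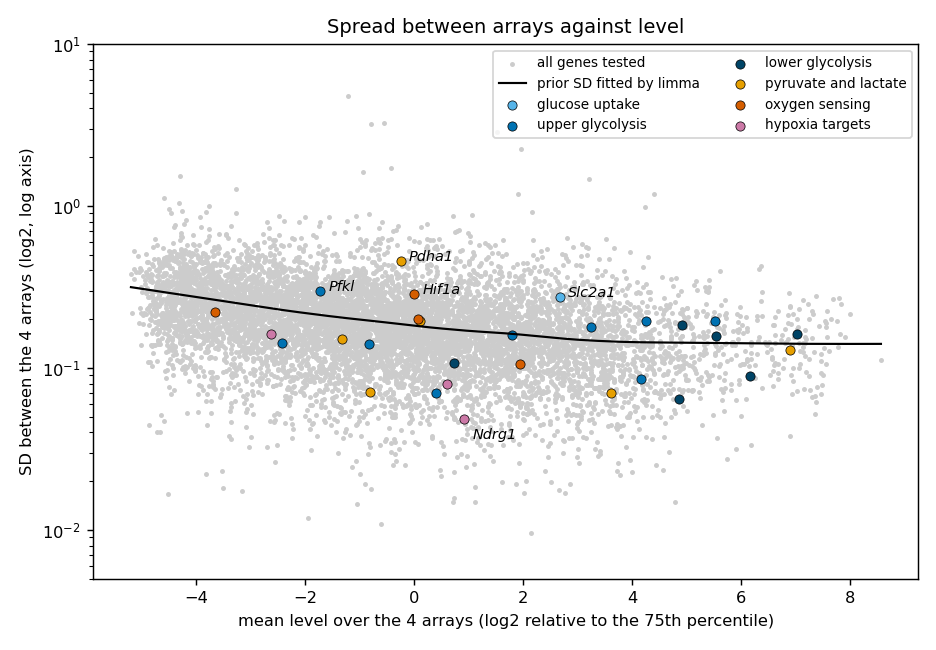
SD between the 4 arrays (vertical, log axis) against mean level (horizontal, log2 relative to the 75th percentile) for the 8376 genes tested in grey and the 29 members in colour by role; the line is the prior SD that limma fitted. Pdha1 is the member farthest above the line, and Ndrg1 has the smallest SD of the members.

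Across members, replicate 3 stood out for the glycolytic enzymes. The 15 enzyme genes from hexokinase to lactate dehydrogenase that were above background, without the Pfkfb genes, were lowest on replicate 3 in 12 cases, and Pfkp, Tpi1 and Eno2 were lowest on replicate 4. Their median deviation from the gene's own mean on replicate 3 was -0.15. Among them Pfkl was 0.33 below its mean there, Aldoa 0.27, Pkm 0.26, Gpi 0.25 and Gapdh 0.21, while Pgam1 was 0.06 below. Of their 30 probes above background, 25 were lowest on replicate 3, among them 7 of 8 for Gapdh and 4 of 4 for Pkm. This set was chosen after its values were seen and has no test.

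Genes of high level were lowest on that array more often than all genes tested. Replicate 3 was the lowest array for 34.4% of all genes tested and for 54.9% of the 543 genes with a mean level above 4, of which the median deviation was -0.09. With quantile normalization, which sets all arrays to 1 distribution, the share of those 543 genes fell to 24.9%, and 9 of the 15 enzymes were lowest on replicate 3, with a median deviation of -0.09. The part of the array in the enzymes' lower values was not tested beyond this. Hif1a, Arnt and Vhl were highest on replicate 3, with deviations of opposite sign to those of most enzymes, and Egln2 was lowest there. Members of other roles, namely Pfkfb3, Pdk1, Pdk3, Pdha1, Adm and Bnip3, were also highest on replicate 3. The trait was therefore not particular to oxygen sensing genes. None of these genes passed the test of spread.

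**Figure D5:**
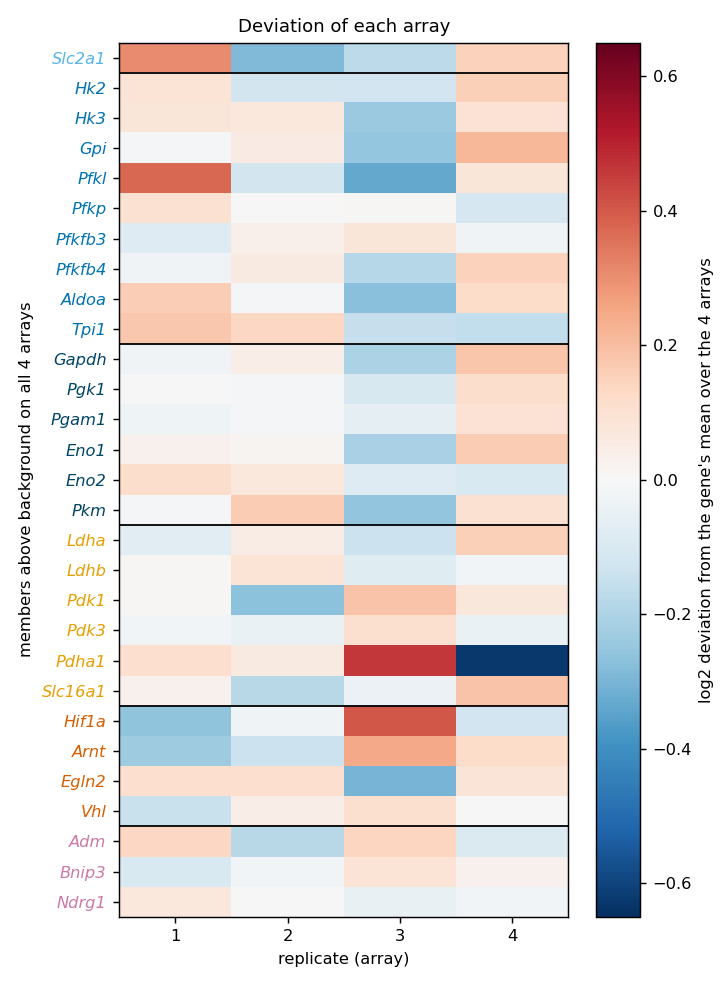
Deviation of each array (columns, replicates 1 to 4) from the gene's own mean over the 4 arrays, in log2 units (colour scale), for the 29 members above background on all arrays, ordered by role. The column of replicate 3 is blue for most genes from Hk2 to Ldhb. It is red, in part faintly, for Pfkfb3, Pdk1, Pdk3, Pdha1, Hif1a, Arnt, Vhl, Adm and Bnip3. The darkest cell is Pdha1 on replicate 4.

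Other genes of the pathway were mostly above background too. Of 72 measured genes in a list of 79, 54 (75%) were above background on every array, Pdk4 and Higd1a on some, and 16 on none. The share over all named genes was 50.5%, which also stands beside the counts of each list below. These lists too were chosen with earlier results of these data known. In this list, limma called 0 of the 54 genes at an adjusted p of 0.05, and 4 had an unadjusted p under 0.05. Among all genes tested, the shares were 0.191% for the adjusted and 5.75% for the unadjusted p.

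Among the glycolytic genes of that list, 9 of 14 were above background. They include the ADP-dependent glucokinase Adpgk (0.48 ± 0.02) and the phosphoglucomutases Pgm1 (-0.86 ± 0.22) and Pgm2 (0.20 ± 0.27). Gapdhs, Pgam2 and Pklr, genes of tissue-restricted enzyme forms, were above background on none. Bpgm, Fbp1, Tigar, Pfkfb1, Pfkfb2 and the muscle enolase Eno3 were above background.

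In the pyruvate and lactate list, 9 of 12 genes were, including Pdk2 (0.96 ± 0.20), Pdhb (0.97 ± 0.07), the mitochondrial pyruvate carrier genes Mpc1 and Mpc2, and Dlat and Dld of the dehydrogenase complex. Pdk4, a kinase gene known from fasting, was at -7.67, -7.74, -3.61 and -7.22 and was above background on replicate 3 alone. Its 1 probe has 1 spot, with a signal only 1.25 to 1.91 times the local background over the 4 arrays. Of 8 genes of sugar uptake, 5 were above background, among them the fructose transporter Slc2a5 (-0.29 ± 0.19) and Slc2a8. Slc2a8 was at 1.5, 1.11, 1.05 and 0.42 (limma unadjusted p 0.00994, adjusted p 0.473). The insulin-responsive transporter Slc2a4 and Slc2a6 were above background on none.

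All 7 genes of the pentose phosphate pathway, which branches from glycolysis and supplies NADPH, were above background. Pgls was at 3.64 ± 0.23, Pgd at 2.05 ± 0.15 and Rpia at 0.76 ± 0.05.

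Of 8 further oxygen sensing genes, 7 were above background. They include Hif1an (-4.60 ± 0.37), the asparagine hydroxylase that inhibits HIF, Arnt2 (-2.10 ± 0.22), and the elongins Elob (4.65 ± 0.10) and Eloc, which bind VHL. Hif1an was near the edge of detection, with a signal only 2 to 2.74 times the local background. Eloc was at 1.85, 2.48, 2.41 and 2.56 (limma unadjusted p 0.0397, adjusted p 0.812). Hif3a was above background on no array.

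Of 23 further hypoxia targets, 17 were above background. Bnip3l was at 2.13 ± 0.17, the mTOR inhibitor gene Ddit4 at -1.80 ± 0.12, and the collagen prolyl hydroxylases P4ha1 and P4ha2 at -1.01 ± 0.28 and -0.91 ± 0.24. Angptl4 was at 0.93, 0.64, 0.21 and 0.95 (limma unadjusted p 0.0484, adjusted p 0.86) and Ak4 at -4.53, -3.63, -4.56 and -3.46 (limma unadjusted p 0.0345, adjusted p 0.781). Both were lowest on replicate 3. Higd1a was above background on 3 arrays, and Car12, Epo, Edn1, Loxl2 and Stc2 on none. Ankrd37, Kdm3a, Car9, Ero1a, Mxi1, Plin2, Hmox1, Tfrc, Mif and Bhlhe40 were also among the detected targets. Of these, Car9 was near the edge of detection, with a signal only 1.85 to 2.49 times the local background.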

How the data were processed

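The deposited files hold 1 Agilent array per culture. Intensity was extracted by the authors using Agilent Feature Extraction 11.0.1.1 (submitters' processing notes). Per the file headers, the deposited processed signal intensity is background-subtracted and detrended within its array, and the other columns used are the median intensity of the spot and of its local background and marks of 0 or 1. The authors' scaling between arrays and tests are not given in the sources used here.

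Control spots were removed, then spots marked as outliers unless a probe had no other. The array's 75th percentile was subtracted from log2 processed signal, and repeat spots were averaged. A probe was above background where more than 0.5 of its spots were marked well above background. Accessions were matched without version to RefSeq's GRCr8 gene table (21109 of 45598 probes); the array grid uses rn4, so table coordinates are given for promoters only. A gene took the probe above background on most arrays, then of highest mean.

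With 1 group there is no comparison between conditions. The test of spread between arrays used limma 3.58.1 (R 4.3.3): variance over 4 arrays against a robust prior fitted as a trend on level, upper-tail F test, Benjamini-Hochberg adjustment over all 8376 genes. The script was tested on simulated data. All 38 members are named; values on every array go to 16 members fixed by name, to those above background on some arrays, with unadjusted p under 0.05 or with the 4 largest or smallest SDs, and to some others chosen after their values were seen. Of the other pathway genes, the first 4 of each list, those on some arrays and those with unadjusted p under 0.05 have values; a few genes of these lists are counted but not reported here by name. The members and lists were chosen with earlier results of these data known. Alternatives were the detection mark, probe choice, outlier spots, normexp correction with offset 50 (on median spot signal, since mean signal was not used here), scaling, filter, prior and leaving out each replicate.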

Additional observations from a re-analysis of the deposited data

Results flagged for a closer look

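Sets of 4 values were checked for 64 genes, the 37 measured members and 27 other pathway genes. Not all of these sets are printed above. In each set, every array was checked for a gap to the nearest other array that is large against the whole range (Dixon's test). Chance flags about 1 in 20 sets, and 10 were met, 5 of them among the members. The sets share the same 4 arrays and their scaling, so the flags are not independent, and their number was not tested.

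Among members above background, replicate 3 was the array apart in each case. Hk3 was at 1.56 there and between 1.87 and 1.89 on the others. Egln2 was at -0.22 against 0.16 to 0.19. Pdk3 was at -0.70 against -0.85 to -0.83. Epas1 and Vegfa were at -7.18 and -7.10 on replicate 4, above the other arrays, and were above background on none; the lowest probe well above background also lay higher on replicate 4, at -5.04 against -5.65 to -5.55.

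Among the other pathway genes, Pgm1 was at -0.53 on replicate 1 against -0.99 to -0.92, and Elob was at 4.51 on replicate 3 against 4.68 to 4.71. Slc2a4 and Slc2a6, below background, were at -7.18 and -6.85 on replicate 4. Pdk4 showed the widest gap, at -3.61 on replicate 3 against -7.74 to -7.22, on 1 probe with 1 spot. The signal of that spot was at most 1.91 times the local background on any array, so the gap is uncertain.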

How the results depend on the processing

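The count of members above background on all 4 arrays stayed between 26 and 30 under every detection setting tried, and that of other pathway genes between 49 and 58. Over the same settings, the share of all named genes ranged from 45.3%, when every probe was required, to 59.0%, with the other detection mark. The 26 came from requiring every probe of a gene, with which Pfkfb3, Hif1a and Arnt dropped out. No member was called for excess spread under any setting run; the lowest adjusted p of a member ranged from 0.059 without a filter on dim probes to 0.982 with a constant prior. Over all genes, the 16 calls of 8376 genes became 156 with normexp, 370 without the filter, 25 with outlier spots kept, 10 under a non-robust prior and 5 under a constant one. They ranged from 4 (without replicate 2) to 22 when 1 replicate was left out. The members' median SD was 0.13 after quantile normalization and 0.10 to 0.17 without 1 replicate. Enzymes lowest on replicate 3, chosen after seeing the data, numbered 9 to 13 of 15 over the scalings. Scaling to detected probes shifted all genes by -3.41, quantile normalization moved no member's mean by more than its SD, and normexp moved 19 of 37. The cause was not tested. No paired analysis was possible because there is 1 group.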
